A study of Mus musculus with 10 samples.

Results

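The cytosolic ribosomal protein genes are those whose symbol is Rpl or Rps followed by a number, with at most a short paralog suffix, together with Rpsa, Rplp0, Rplp1 and Rplp2. Of 22180 genes measured by a probe set with a single symbol, 67 fitted that naming rule. By name, 42 of these belong to the large subunit and 25 to the small subunit. Names of annotated pseudogenes ending in -ps were left out, and the brightest probe set stood for each gene. RefSeq lists 2 of the members kept, Rpl6l and Rps4l, as pseudogenes. RNA came from the plantaris muscle of male C57BL/6 mice, and the labels used here give no age. The groups were muscle with no overload, muscle overloaded for 3 d with or without an inhibitor of PDGF signalling, and muscle overloaded for 10 d with or without it. Overload was produced by synergist ablation, the surgical removal of muscles that share the work of the plantaris. Each group had 2 arrays, and each array held equal amounts of RNA from 4 muscles. The inhibitor is not named in the labels, and no muscle received it without overload. Whether both pools of a group drew on separate mice is not stated, so a p-value here measures the spread between pools, which may be technical in part.

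Ribosomal proteins and ribosomal RNA make up the small subunit, which reads the mRNA, and the large subunit, which forms the peptide bond. In mammals the mRNAs of ribosomal proteins begin with a run of pyrimidines, the terminal oligopyrimidine tract, through which mTORC1 controls their translation, so mRNA levels and protein output can move apart. Some members have a paralog with restricted expression. Rpl3l, which replaces Rpl3 in ribosomes of skeletal and cardiac muscle, is the muscle example.

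The sequences around the start sites of 4 members whose level rose at 3 d are shown for their runs of pyrimidines, with that of Rpl3l beside them, which has a short one. Each runs from 50 bases before to 30 bases after the RefSeq start of build GRCm38.p6, on the gene's strand, and its longest run of C and T in that stretch is in capitals. The 4 had the largest rises at 3 d among members with a run of at least 8 bases in the stretch shown. They were chosen for having one: 9 members with larger rises than that of Rpl13, Rps23, Rpl41 and Rpl37 among them, had longest runs of 4 to 7 bases there, and Rpl3 and Rpl32 are not shown.
Rps12, chr10:23787180-23787259, minus strand: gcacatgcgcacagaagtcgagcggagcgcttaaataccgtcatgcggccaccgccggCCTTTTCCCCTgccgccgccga
Rps18, chr17:33955636-33955715, minus strand: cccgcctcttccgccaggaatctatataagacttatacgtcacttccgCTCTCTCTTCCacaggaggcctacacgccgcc
Rps10, chr17:27635215-27635294, minus strand: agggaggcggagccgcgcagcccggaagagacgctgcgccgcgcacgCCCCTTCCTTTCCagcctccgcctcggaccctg
Rpl13, chr8:123102300-123102379, plus strand: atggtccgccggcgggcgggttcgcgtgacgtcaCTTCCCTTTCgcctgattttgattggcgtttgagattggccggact
Rpl3l, chr17:24727776-24727855, plus strand: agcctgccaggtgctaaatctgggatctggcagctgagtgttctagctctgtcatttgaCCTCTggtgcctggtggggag

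Rps10 held a run of 13 pyrimidines and Rps18 one of 11, both across the annotated start. The run of 11 in Rps12 began at base 9 of the annotated transcript. The run of 10 in Rpl13 began 16 bases before the start and ended before it. The longest run of Rpl3l had 5. A run marked here need not be the terminal tract of the mRNA. Of the 67 members, 52 had a start-site window in RefSeq, with 61 windows among them. A C/T run of at least 8 bases lay within 50 bases of the start in 46 of the 61 windows (75.4%), against 35.7% of 32851 windows over all genes. The members that rose at 3 d did not stand out by this feature, with a run in 15 of 21 windows (71.4%) against 31 of 40 windows (77.5%) of the other members. The Ets-type motif CCGGAAGT, read on both strands of the 300-base window, occurred in 18.0% of member windows and in 3.89% of all windows. It was found in 7 of the 21 windows of members that rose and in 4 of the 40 windows of the other members. Read on the opposite strand it holds CTTCC, so it can overlap part of a C/T run. CAGCTG, an E-box core, lay in the Rpl3l window and in 6.56% of member windows, against 16.3% of all windows. These matches are descriptions of letters in a window.

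Overload of 3 d was set against no overload to ask which ribosomal protein genes respond early. Most were higher in overloaded muscle. At an adjusted p under 0.05 in limma, 18 of 67 members rose (26.9%), against 9.31% of all genes, and 1 member fell (1.49%), against 8.18% of all genes. The change was above 0 in 61 members, and its median was 0.36 on the log2 scale, against -0.04 over all genes. Those that rose were 9 of the 42 large subunit genes and 9 of the 25 small subunit genes, so both subunits were represented. The pools of the groups did not overlap in the higher direction for 46 members (68.7%), against 25.1% of all genes, and in the lower direction for 4 members (5.97%), against 30.7% of all genes.

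Rpl3, a large subunit protein near the peptidyl transferase centre, changed the most. Its log2 values were 4.62 and 4.86 without overload, 5.80 and 6.29 at 3 d with inhibitor, 6.73 and 6.20 at 3 d, 6.01 and 5.45 at 10 d with inhibitor, and 5.23 and 5.52 at 10 d. All overloaded pools lay above the pools without overload. The 3 d change was 1.73 ± 0.26 (standard error from the limma fit, n = 2 pools a group), or 3.31-fold higher, with an adjusted p of 0.00286. The size rests on the choice of probe set, since its other probe sets moved by 3.08 at a mean level of 4.85 and by -0.94 at a mean level of 2.56.

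Rpl3l was the member that fell. It read 9.34 and 9.36 without overload, 7.99 and 8.29 at 3 d with inhibitor, 8.10 and 8.12 at 3 d, 8.86 and 8.99 at 10 d with inhibitor, and 9.09 and 8.70 at 10 d. The lowest values were those of the 4 pools taken at 3 d, and the pools at 10 d lay between them and the pools without overload. The 3 d change was -1.24 ± 0.17, or 2.37-fold lower, with an adjusted p of 0.00171 in limma.

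Rps12, a small subunit protein, read 9.97 and 9.74 at 3 d, against 9.07 and 8.91 without overload. Its change was 0.87 ± 0.15 (adjusted p of 0.00463 in limma). Rpl32, a large subunit protein, read 9.40 and 9.27 at 3 d, against 8.50 and 8.36 without overload, a change of 0.90 ± 0.17 (adjusted p of 0.0077). For both genes the groups were separated by more than the distance between the pools of either group. Rpl41, a very short and basic large subunit protein, read 10.63 and 10.40 at 3 d, against 9.81 and 9.56 without overload, a change of 0.83 ± 0.16 (adjusted p of 0.00819). Rps23, which lies at the decoding centre of the small subunit, read 4.87 and 4.24 at 3 d, against 3.36 and 3.52 without overload, a change of 1.12 ± 0.23 (adjusted p of 0.0111). Its probe set was dim, at a mean level of 3.69. The other risers were Rpl10a, Rpl13, Rpl19, Rpl22, Rpl37, Rpl7a, Rps10, Rps18, Rps19, Rps25, Rps4x, Rps6 and Rpsa, with changes between 0.49 and 0.78. Rps6, the S6 kinase substrate of the small subunit, was bright and moved by a modest amount, reading 10.88 and 10.78 at 3 d, against 10.39 and 10.28 without overload.

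**Figure D1:**
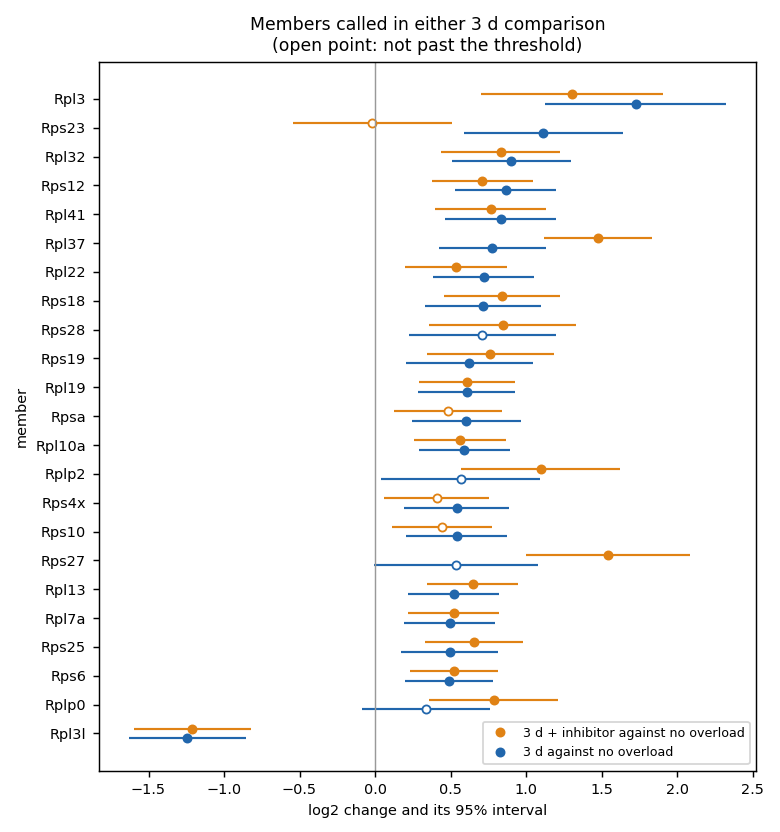
The log2 change (horizontal axis, with its 95% interval) of each member that passed the threshold in either 3 d comparison, in orange for 3 d with inhibitor and in blue for 3 d without it, both against no overload; open points did not pass. All members drawn lie to the right of 0 in at least 1 colour except Rpl3l, which lies near -1.2 in both.

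The count of calls depended on single arrays and on the scaling. The first 3 d pool stood apart from the others: markers of granulocyte precursors summed to 277.5 on the linear scale there, against 18.9 to 73.2 in the other 9 pools, and its Elane and Mpo values were 5.21 and 5.02, against at most 1.75 elsewhere. Without that pool 3 members rose (4.48%), against 5.59% of all genes in the same fit, and Rpl3l fell (1.49%), against 4.09% of all genes, with a median change of 0.32 over the members against -0.04 over all genes. The share of members that rose was thus near that of all genes in this fit, and the part of these cells in the result was not tested. Without the second 3 d pool 11 members rose (16.4%), against 6.94% of all genes. Without the first pool that had no overload 6 rose (8.96%), against 6.17% of all genes, and without the second 7 rose (10.4%), against 6.67%. Rpl3, Rps12 and Rpl3l were called in each of the 10 fits that left out 1 pool. The median of all genes lay 0.19 higher at 3 d than without overload (0.12 with inhibitor), and with every array set to a common median 7 members rose (10.4%), against 7.06% of all genes, and 2 fell (2.99%), against 14.9% of all genes. The median change was then 0.17, against -0.23 over all genes.

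The same comparison with the inhibitor present gave similar counts, but it shares the pools without overload, so the counts are given side by side and not as repeats. With inhibitor at 3 d, 18 members rose against 7.71% of all genes, and 1 fell against 6.51% of all genes. The median change was 0.35, against -0.00 over all genes, and 58 members had a change above 0. Pools did not overlap in the higher direction for 46 members, against 26.8% of all genes, and in the lower direction for 2 members, against 26.4%. Rps27, a zinc finger protein of the small subunit, read 5.41 and 5.20 at 3 d with inhibitor, against 3.87 and 3.65 without overload, a change of 1.54 ± 0.24 (adjusted p of 0.00414 in limma). Rpl37, a zinc-binding large subunit protein, read 4.02 and 4.26 at 3 d with inhibitor, against 2.82 and 2.50 without overload, a change of 1.48 ± 0.16 (adjusted p of 8.6e-04). The probe sets of Rps27 and Rpl37 were dim, at mean levels of 4.40 and 3.17. Rpl3 was higher by 1.30 ± 0.26 (adjusted p of 0.0131). Rpl3l fell, with a change of -1.21 ± 0.17 (adjusted p of 0.00278). Rps28, at the mRNA exit side of the small subunit, changed by 0.85 ± 0.21 (adjusted p of 0.0323). Without the first inhibitor pool 4 members rose (5.97%), against 3.84% of all genes, and without the second 6 rose (8.96%), against 4.92%. Without the first pool that had no overload 5 rose (7.46%), against 4.27% of all genes, and without the second 8 rose (11.9%), against 4.67%. Rps27, Rpl37 and Rpl3l were called in each of the 10 fits that left out 1 pool.

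The stalk of the large subunit, which recruits translation factors, is built on Rplp0 with Rplp1 and Rplp2. Rplp0 read 7.77 and 7.32 at 3 d with inhibitor, 7.10 and 7.09 at 3 d, and 6.61 and 6.91 without overload. The change with inhibitor was 0.79 ± 0.19 (adjusted p of 0.0249 in limma), and that at 3 d without it was 0.34 ± 0.19 (adjusted p of 0.283). Rplp2 changed by 1.10 ± 0.23 with inhibitor (adjusted p of 0.0154) and by 0.57 ± 0.23 without it (adjusted p of 0.14), from a probe set at a mean level of 2.18. Rplp1, at a mean level of 10.1, changed by 0.31 and 0.26 and passed in neither comparison (adjusted p of 0.192 with inhibitor and 0.261 without).

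At 10 d the early rise was no longer seen at the same threshold. No member was called at 10 d against no overload, against 3.9% of all genes higher and 1.23% lower. The median change was 0.10, against -0.04 over all genes, and 44 members had a change above 0. The smallest adjusted p was that of Rps27 (0.051 in limma), which read 4.72 and 4.78 at 10 d, against 3.87 and 3.65 without overload. Pools did not overlap in the higher direction for 29 members, against 22.1% of all genes, and in the lower direction for 12, against 28.1%. With every array set to a common median the 10 d median became -0.07, against -0.21 over all genes, so its direction is not settled. The members' median lay above that of all genes under both scalings. The limma-trend fit called 7 members at 10 d (10.4%), against 9.45% of all genes.

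With inhibitor at 10 d no member was called either, against 1.13% of all genes higher and 0.428% lower. The median change was 0.23, against -0.02 over all genes, and 53 members had a change above 0. Rps27l, a p53-inducible paralog of Rps27, had the smallest adjusted p (0.0518 in limma). It read 5.44 and 5.35 at 10 d with inhibitor, against 4.66 and 4.65 without overload. Pools did not overlap in the higher direction for 40 members, against 21.5% of all genes, and in the lower direction for 6, against 25.1%. The limma-trend fit called 7 members here (10.4%), against 4.82% of all genes.

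The comparison of 10 d with 3 d of overload asks directly whether the level fell back. The change was below 0 in 56 of 67 members, with a median of -0.30, against 0.01 over all genes. By limma 4 members fell (5.97%), against 3.38% of all genes, and 2 rose (2.99%), against 2.7% of all genes. Those that fell were Rps23 (-1.36 ± 0.23, adjusted p of 0.0149), Rpl3 (-1.09 ± 0.26, adjusted p of 0.0485), Rps12 (-0.75 ± 0.15, adjusted p of 0.0237) and Rpl32 (-0.72 ± 0.17, adjusted p of 0.0476). Rps12 read 9.02 and 9.21 at 10 d, against 9.97 and 9.74 at 3 d. Rpl3l rose, with a change of 0.79 ± 0.17 (adjusted p of 0.0327), as did Rpl10l, a testis-enriched paralog with a dim probe set at a mean level of 1.09, by 0.60 ± 0.15 (adjusted p of 0.0476). The calls of Rpl3 and Rpl10l rested on every pool being in the fit, and those of Rpl32 and Rpl3l on most pools. With 1 pool left out the change ran from -1.35 to -0.83 for Rpl3 and from 0.54 to 0.67 for Rpl10l. Pools did not overlap in the lower direction for 44 members, against 24.2% of all genes, and in the higher direction for 4, against 24.6%. All 18 members that rose at 3 d had a lower mean at 10 d than at 3 d, as did 88.7% of the 2066 genes of any kind that rose at 3 d. Both shares are fixed in part by choosing genes that were high at 3 d. The count of calls depended on single pools here as well. Without the first 3 d pool the members' median was -0.20, and without the second it was -0.39, against 0.01 over all genes in each fit.

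**Figure D2:**
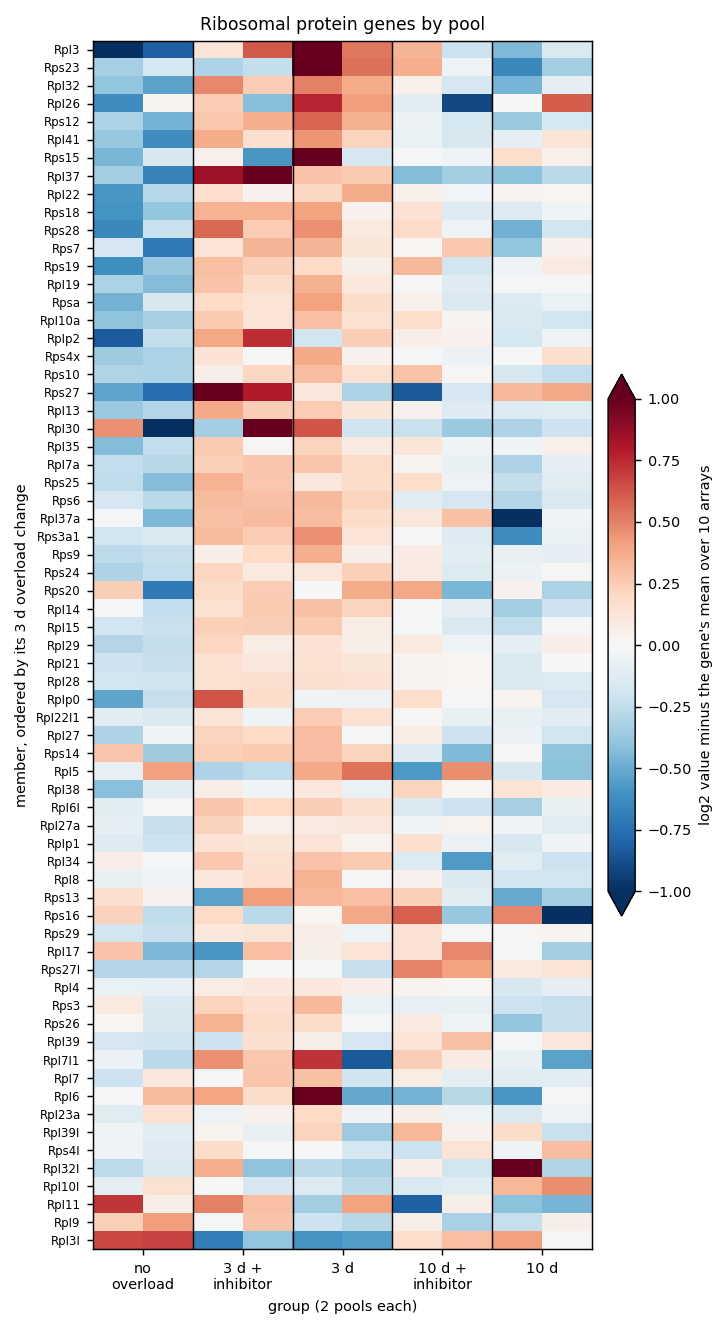
The log2 value of each of the 67 members (rows, ordered by the change at 3 d) in each of the 10 pools (columns, 2 a group), minus the gene's mean over the 10 arrays; red is above and blue below that mean, and the colour scale ends at 1 and -1. Most rows are red in the 4 pools at 3 d and blue in the pools without overload, and Rpl3l in the bottom row runs the other way.

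The inhibitor was compared with no inhibitor at each time to ask whether blocking PDGF signalling alters these genes during overload. No member was called at 3 d, where 0% of all genes were called. The median change was 0.03, the same as over all genes. No member was called at 10 d, where 0.104% of all genes were called. The median there was 0.09, against 0.01 over all genes, with 50 members above 0. Pools did not overlap in the higher direction for 9 members at 3 d, against 22.3% of all genes, and for 23 at 10 d, against 21.6%. In the lower direction they did not overlap for 5 members at 3 d, against 17.7%, and for 5 at 10 d, against 19.5%.

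The intervals show how large an effect of the inhibitor these pools leave room for. For Rpl3l the change with inhibitor was 0.03 at 3 d (95% interval -0.36 to 0.42) and 0.03 at 10 d (-0.36 to 0.42), while overload alone moved it by -1.24 at 3 d. For Rpl3 it was -0.42 at 3 d (-1.02 to 0.18) and 0.36 at 10 d (-0.25 to 0.96). For Rps12 it was -0.16 at 3 d (-0.49 to 0.18) and 0.16 at 10 d (-0.18 to 0.49). Rps23 and Rps27 differed the most by value at 3 d. Rps23 read 3.38 and 3.46 at 3 d with inhibitor, against 4.87 and 4.24 at 3 d without it (-1.13, adjusted p of 0.229 in limma). Rps27 read 5.41 and 5.20 with inhibitor, against 4.51 and 4.08 without it (a difference of 1.0, adjusted p of 0.293). Both probe sets were dim, with mean levels of 3.69 and 4.40, and among the 33 brighter members the 3 d inhibitor changes lay between -0.16 and 0.45, against -1.13 to 1.0 among the 34 dimmer ones.

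The difference between the inhibitor's effects at 10 d and at 3 d was tested for every gene, and 0% of all genes and no member passed. The smallest adjusted p among members was 0.516 in limma, for Rps23 and Rps27.

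**Figure D3:**
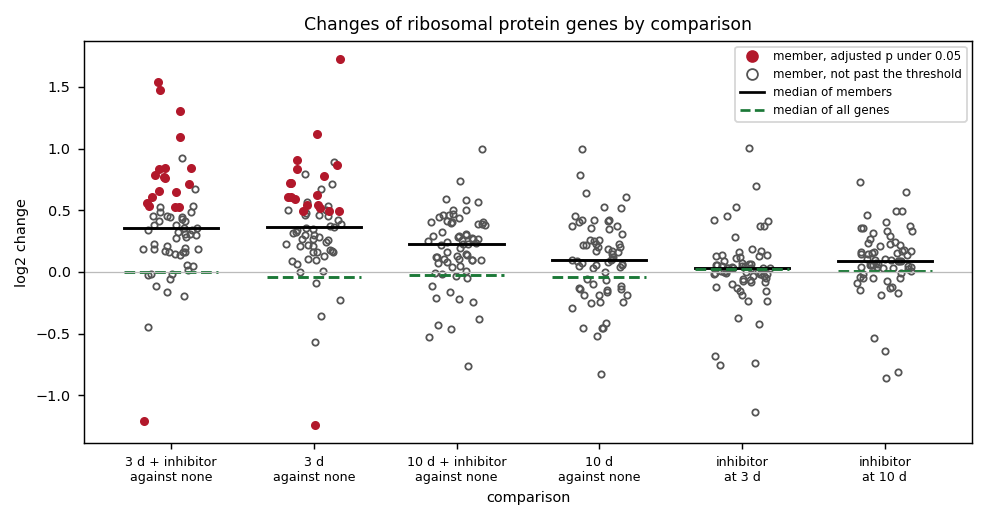
The log2 change (vertical axis) of each of the 67 members in 6 comparisons; filled red points passed an adjusted p under 0.05, the black line is the median of the members and the dashed green line that of all genes. Members lie mostly above 0 in both 3 d comparisons against no overload, with medians of 0.35 with inhibitor and 0.36 without, and around 0 in the comparisons of the inhibitor with none, where no point passed.

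Among the paralog pairs, Rpl3 and Rpl3l were called in opposite directions at 3 d. Rpl22, an RNA-binding large subunit protein, rose by 0.72 ± 0.15 (adjusted p of 0.0104 in limma), and its paralog Rpl22l1 changed by 0.33 ± 0.13 (adjusted p of 0.128). The probe sets of Rpl22 and Rpl22l1 were dim, at mean levels of 3.7 and 3.6. Rps4x rose by 0.54 ± 0.15 (adjusted p of 0.0412), and Rps4l, which RefSeq lists as a transcribed pseudogene, changed by -0.00 (adjusted p of 0.993). The changes of Rps27 and Rps27l were 0.54 (adjusted p of 0.176) and 0.17 (adjusted p of 0.531). Rpl7 and Rpl7l1 changed by 0.10 and 0.10, and Rpl39 and Rpl39l by 0.13 and 0.01, none of which passed. Apart from Rpl3l, none of the paralogs set apart here (Rpl10l, Rpl39l, Rpl22l1, Rps27l, Rpl7l1 and Rps4l) passed at 3 d. Without these and Rpl3l the members' median was 0.44.

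A pair outside the group, the elongation factors that bring aminoacyl-tRNA to the ribosome, has the same kind of muscle switch, Eef1a2 being the form of adult muscle and nerve. Eef1a1 read 10.87 and 10.97 at 3 d with inhibitor and 11.21 and 11.08 at 3 d, against 9.96 and 10.04 without overload. It rose by 1.15 ± 0.17 at 3 d (adjusted p of 0.00227 in limma) and by 0.82 ± 0.17 at 10 d (adjusted p of 0.0297). Eef1a2 read 10.23 and 10.22 at 3 d, against 10.77 and 10.90 without overload, a change of -0.61 ± 0.12 (adjusted p of 0.0104). With inhibitor at 3 d its change of -0.43 ± 0.12 did not pass (adjusted p of 0.0558). At 10 d it was higher than at 3 d by 0.57 ± 0.12 (adjusted p of 0.0349), as Rpl3l was.

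**Figure D4:**
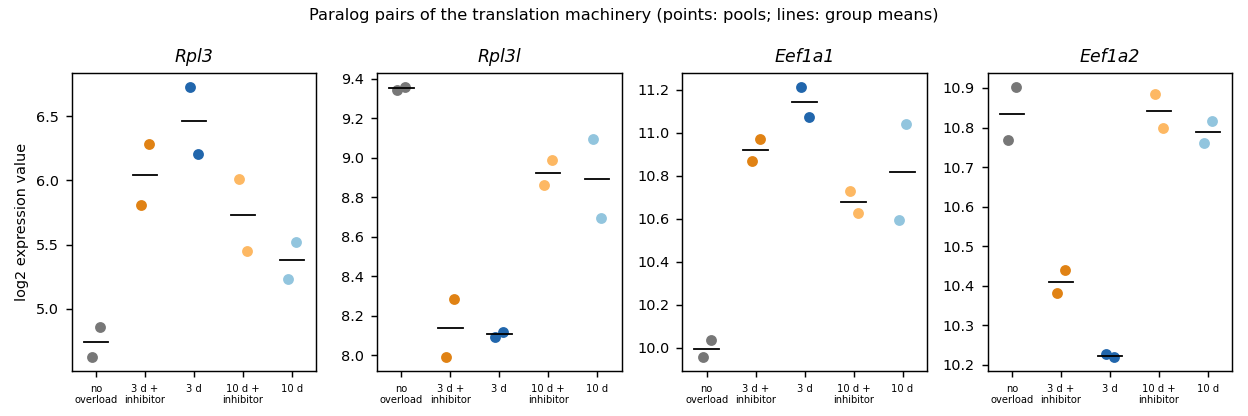
The log2 expression value (vertical axis, on a scale of its own in each panel) of Rpl3, Rpl3l, Eef1a1 and Eef1a2 in every pool, by group, with lines at the group means. Rpl3 and Eef1a1 are lowest in the pools without overload, while Rpl3l and Eef1a2 are lowest in the pools taken at 3 d.

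Lists of other genes around the ribosome were counted the same way, beside the 9.31% of all genes that rose at 3 d. Of 24 further genes with terminal oligopyrimidine mRNAs or roles in translation, 2 rose at 3 d (8.33%), Eef1a1 and the histone chaperone Nap1l1 (0.57 ± 0.13, adjusted p of 0.0161 in limma), with a median of 0.18. In that list Fau, whose product is cut to give small subunit protein S30, changed by 0.55 ± 0.17 and did not pass (adjusted p of 0.0622). Of 18 chaperones and import factors of ribosomal proteins, 2 rose at 3 d (11.1%), the importins Kpnb1 (0.60 ± 0.13, adjusted p of 0.0144) and Tnpo1 (0.49 ± 0.12, adjusted p of 0.0273). From that list Kpnb1, Grwd1 and Eif6 were lower at 10 d than at 3 d, a comparison in which 3.38% of all genes were called lower. Of 18 genes of RNA polymerase I and nucleolar RNA processing, 2 rose at 3 d (11.1%), the box C/D protein Nop58 (0.87 ± 0.19, adjusted p of 0.0135) and the polymerase subunit Polr1c (0.67 ± 0.20, adjusted p of 0.0479). Of 11 regulators of ribosomal protein mRNAs, 2 rose at 3 d (18.2%). The share was near that of all genes in the first 3 of these lists, and the median change of the regulators was -0.11. Myc, a transcription factor that activates ribosome genes, changed by 1.85 ± 0.36 (adjusted p of 0.0079), and Eif4ebp1, a translational repressor under mTORC1, by 0.65 ± 0.16 (adjusted p of 0.0237). With inhibitor at 3 d these changes against no overload were 2.18 ± 0.36 for Myc (adjusted p of 0.00516) and 1.29 ± 0.16 for Eif4ebp1 (adjusted p of 0.00161).

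Markers of several cell types changed at 3 d against no overload, where 9.31% of all genes rose and 8.18% fell. Markers of mature fibres were bright in every pool, with summed linear levels of 37870 to 49400. At that time all 13 measured macrophage markers rose, with a median change of 2.96, as did 13 of 14 markers of dividing cells (median 2.65), 6 of 10 fibroblast markers and 7 of 10 satellite cell markers, of which 1 other fell. Of 10 endothelial markers 2 fell, and no marker of granulocyte precursors (8), red cell precursors (5) or lymphocytes (8) passed. Of 15 markers of mature fibres 4 fell and none rose, with a median of -0.27, and their summed linear level was 40670 and 39830 at 3 d, against 46960 and 47070 without overload. The members' summed linear level was 29750 and 27160 at 3 d, against 21950 and 21880 without overload. Fewer cells of a type and less RNA per cell cannot be told apart in whole muscle, and the part of cell makeup in the changes of Rpl3, Rpl3l and the other members was not tested.

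Between 3 d and 10 d the lists did not all run one way. The median change at 10 d against 3 d was -1.15 for macrophage markers and -1.49 for dividing cell markers, as against -0.30 for the ribosomal protein genes, but 0.53 for fibroblast markers (9 of 10 above 0), 0.20 for endothelial markers (9 of 10) and 0.31 for mature fibre markers (14 of 15).

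The same lists were set beside the ribosomal protein genes for the inhibitor. The median change with inhibitor at 3 d was -1.01 for dividing cell markers, -0.51 for macrophage markers and 0.03 for the ribosomal protein genes. At 10 d the medians were -0.84, -0.54 and 0.09 in the same order. Of these markers 1 passed the threshold, a dividing cell marker at 10 d, and the difference between the lists was not tested. The members' score, the median over members of a value minus the gene's mean over the arrays, was -0.19 and -0.23 without overload, 0.21 and 0.18 at 3 d with inhibitor, 0.26 and 0.11 at 3 d, 0.05 and -0.07 at 10 d with inhibitor, and -0.14 and -0.10 at 10 d. The score was highest in the 4 pools at 3 d, and the pools with and without inhibitor overlapped there. At 10 d both pools with inhibitor lay above both pools without it, but the nearest were -0.07 and -0.10. The pooled SD of the score within groups was 0.066. The members' summed linear level overlapped at 10 d, at 25970 and 24240 with inhibitor and 22670 and 24300 without it.

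**Figure D5:**
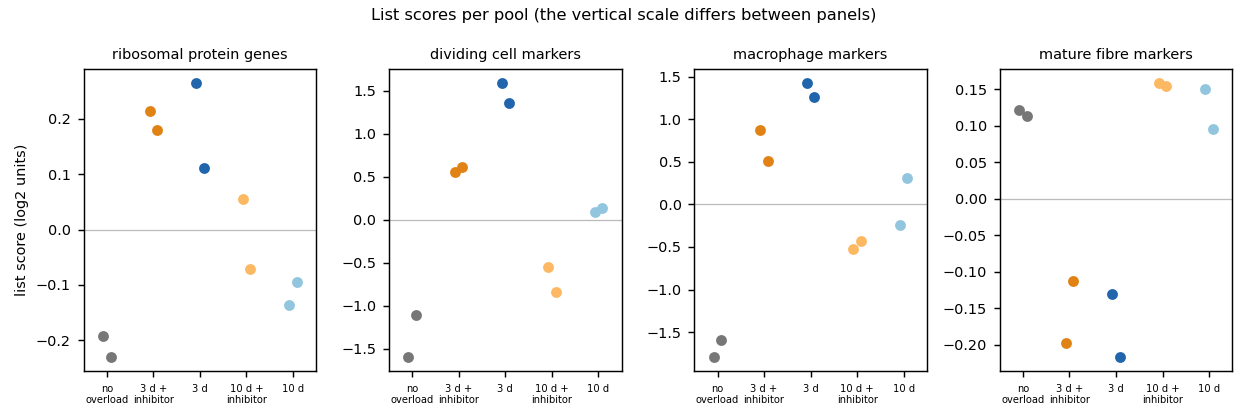
The list score in log2 units (vertical axis, on a scale of its own in each panel) of the 67 ribosomal protein genes and of markers of dividing cells, macrophages and mature fibres in every pool, by group. The marker scores of dividing cells and macrophages are lower with inhibitor than without it at each time. The ribosomal protein scores overlap between the 3 d groups and are slightly higher with inhibitor at 10 d.

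Brightness and shared sequence limit how each member can be read. The members' mean levels ran between 0.84 (Rpl27a) and 11.4 (Rpl21), with a median of 6.68, against 3.13 over all genes, and 12 of 67 lay at or under that all-gene median. Levels of different probe sets are not comparable between genes. Among the 33 brighter members 11 rose at 3 d (33.3%), against 15% of the 3682 genes as bright, and Rpl3l fell (3.03%), against 20.6%. Their median change was 0.39, against -0.07 over those genes. Among the 34 dimmer members 7 rose (20.6%), against 8.17% of the 18498 other genes, and none fell, against 5.71%, with a median of 0.30. RefSeq names 228 -ps pseudogenes for 49 of the members, whose transcripts a probe set could also bind, and 57 probe sets that name a member together with other symbols were not used. The members had 41 further probe sets, of which 15 were brighter than 7 on the log2 scale. After removing identical values 10 were left, for 7 genes, and all 10 had a 3 d change above 0, with a median of 0.81. Of the 26 dimmer further probe sets, 17 had a change above 0.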

How the data were processed

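RNA of mouse plantaris was measured on 10 Affymetrix Mouse Gene 2.1 ST arrays. The deposited table holds the authors' log2 values for 41345 probe sets, made with RMA and oligo per the submitters' processing notes, without versions. RMA quantile-normalizes probe intensities, so it cannot show a shift that most transcripts share. The labels name more than one labelling kit for every array, and neither strip nor scan date is known here. The number of arrays limits the precision.

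Of the probe sets, 23521 had 1 symbol, 1814 had several and 16010 were unlisted in the array annotation. The brightest probe set stood for each of 22180 genes, with no filter on dim signal. A limma 3.58.1 fit (R 4.3.3) had 1 coefficient for each group, giving 5 residual and 3.58 prior degrees of freedom, in 8 comparisons. Calls needed an adjusted p (Benjamini-Hochberg, over all genes) under 0.05, and errors are standard errors of the log2 change. The fit was tested on simulated data.

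Members, lists and tests were chosen with earlier results of these data known. Named were the 5 largest called rises and falls per comparison, the paralog pairs, the stalk genes, Fau, members at extreme levels and up to 4 called genes per other list. Rpl10, Rpl12 and Rps27a were not analysed here. Of 89 RefSeq genes that match the naming rule, 22 are not among the members. Rps6, Rps10, Rpl13, Elane, Mpo and the list of all risers were chosen after values were seen. Alternatives were a common array median, the mean of probe sets, genes above the median level and limma-trend. Others left out the paralogs set apart or each array in turn, and brighter members only was added after seeing the data. Start sites came from RefSeq GRCm38.p6.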

Additional observations from a re-analysis of the deposited data

Results flagged for a closer look

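In 3 of 67 members (4.48%) the inhibitor pools lay wholly on opposite sides of the pools without inhibitor at 3 d and at 10 d, as in 5.46% of all genes. The inhibitor's change at 10 d minus that at 3 d was 1.78 for Rps23, -1.86 for Rps27 and 0.21 for Rpl22l1. By limma's test of that difference the adjusted p was 0.516 for Rps23, 0.516 for Rps27 and 0.87 for Rpl22l1, so none passed.

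Rps23 read 3.38 and 3.46 at 3 d with inhibitor, against 4.87 and 4.24 without it, and 4.05 and 3.64 at 10 d with inhibitor, against 3.05 and 3.35 without it. Rps27 read 5.41 and 5.20 at 3 d with inhibitor, against 4.51 and 4.08 without it, and 3.56 and 4.23 at 10 d with inhibitor, against 4.72 and 4.78 without it. Rpl22l1 read 3.70 and 3.52 at 3 d with inhibitor, against 3.82 and 3.71 without it, and 3.57 and 3.49 at 10 d with inhibitor, against 3.49 and 3.46 without it.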

How the results depend on the processing

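No paired analysis was possible because the labels give no replicate numbers that link pools across groups. Calls among 67 members (55 among genes above the median level, 33 brighter ones) follow, each with the share of all genes called in that setting. Settings not listed for a comparison moved its count less, apart from leaving out arrays, which is given below. The brighter members come from the unaltered fit, whose shares cover all genes and not only those as bright. At 3 d genes as bright were called more often than all genes, by the shares given above with the members' brightness. At 3 d against no overload (19 calls, 17.5%), a common median gave 9 (21.9%) and the mean of probe sets 16 (16.9%). Genes above the median level gave 31 (40.6%), limma-trend 28 (20.9%) and brighter members 12. At 3 d with inhibitor (19, 14.2%), a common median gave 13 (14.9%) and the mean of probe sets 15 (13.8%). There genes above the median level gave 28 (34.3%), limma-trend 31 (18.1%) and brighter members 12. At 10 d (0, 5.13%), the mean of probe sets gave 1 (5.07%), genes above the median level 3 (17.1%) and limma-trend 7 (9.45%). At 10 d with inhibitor (0, 1.56%), genes above the median level gave 2 (7.48%) and limma-trend 7 (4.82%). At 10 d against 3 d (6, 6.08%), genes above the median level gave 13 (20.7%), limma-trend 18 (11%) and brighter members 3. Under a common median the members' median change became 0.17 at 3 d and -0.067 at 10 d, against -0.23 and -0.21 over all genes. With inhibitor against no overload it was 0.23 at 3 d and 0.14 at 10 d, against -0.13 and -0.11. For the inhibitor against none it was 0.0945 at 3 d and 0.17 at 10 d, against 0.0935 and 0.092 over all genes. Without the paralogs set apart the 3 d median was 0.44. Why the settings differ was not tested. Where a setting drops genes, fewer genes enter both the fit and the adjustment.

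Leaving out 1 array gave 4 to 17 calls at 3 d, 5 to 18 at 3 d with inhibitor, 0 to 1 at 10 d, 0 to 7 at 10 d against 3 d, and 0 in the inhibitor comparisons. The median ranges were 0.32 to 0.41 at 3 d, 0.35 to 0.39 at 3 d with inhibitor, 0.065 to 0.17 at 10 d, 0.19 to 0.29 at 10 d with inhibitor, -0.39 to -0.20 at 10 d against 3 d, -0.072 to 0.079 for the inhibitor at 3 d, 0.04 to 0.15 at 10 d and 0.0056 to 0.15 for the difference. The inhibitor's change of Rpl3l, near 0, ranged over -0.12 to 0.18 at 3 d and turned to -0.17 and -0.034 at 10 d without single arrays, and the difference turned to 0.014 under a common median and to 0.011, 0.15, 0.20 and 0.061 without single arrays.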
